A study of Homo sapiens with 2 samples.

Results

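NeuroD1 peaks in IMR-32 neuroblastoma cells were examined at 9 genes of the pancreatic islet programme, namely INS, PDX1, PAX4, PAX6, NKX2-2, NKX6-1, ABCC8, KCNJ11 and GLP1R. The genes were taken as members of the islet programme in which NeuroD1 acts in beta cells. A peak was counted for a gene when any part of it overlapped the RefSeq gene body or lay up to 20 kb from either end. By this rule, 3 of the 9 genes (ABCC8, KCNJ11 and NKX6-1) had a peak, and 3 of the 6183 peaks of the list lay at them. No peak was called within 20 kb of INS, PDX1, PAX4, PAX6, NKX2-2 or GLP1R. IMR-32 is an established neuroblastoma cell line with amplified MYCN, labelled here as wild type, with no treatment named. The series holds 1 ChIP library, made with a NeuroD1 antibody according to its label, and 1 input library made without antibody, which was not analysed here. The ChIP-seq methods of the study name an H3K27Ac antibody for the pull-down, and the list was used as a NeuroD1 list because it is labelled so. The antibody list of the study includes a NeuroD1 antibody from the maker named on the label. With a single library there was no replicate, so no test was run. The intervals of reads and of fold enrichment below cover counting error of the ChIP reads only, with the background held fixed.

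NeuroD1 is a basic helix-loop-helix transcription factor that binds E-box motifs as a dimer with an E-protein. In the pancreas it acts late in the making of endocrine cells and stays on in beta cells, where the insulin gene is its best known target. In the nervous system it drives the differentiation of neurons, and cells of the sympathetic lineage do not normally make insulin. ChIP-seq peaks measure where DNA was recovered with the antibody and do not measure expression, so whether the 9 genes were transcribed in IMR-32 cells was not analysed here.

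The share of genes with a peak was close to the background. Of 20037 protein-coding genes in RefSeq, 5944 met the same rule, which is 29.7% (95% exact Clopper-Pearson interval 29.0% to 30.3%), against 33.3% of the 9 islet genes. The interval treats genes as independent draws, although neighbouring genes can share a peak. With only 9 islet genes, a moderate difference from this share could not be seen. ABCC8 and KCNJ11 lie side by side and share 1 of their peaks, so the 3 genes stand for 2 places in the genome. A longer gene has a longer window, and the share over all protein-coding genes rose from 22.8% in the lowest quartile of gene length to 35.7% in the highest. INS, PDX1, PAX4, NKX6-1 and KCNJ11 belong to the lowest quartile, NKX2-2 to the next, PAX6 and GLP1R to the one above it and ABCC8 to the highest. With 3 kb in place of 20 kb, 2 of the 9 genes had a peak beside 21.4% of all protein-coding genes, and with 50 kb 3 did, beside 39.9%. The count was also 3 when peaks were limited to a −log10 q of at least 5 (24.4% of all genes), to a fold enrichment of at least 5 (27.6%) or to those with the summit in the window (29.6%). The nearest peak lay at a median distance of 268 kb from the 9 genes, whereas over the 19974 protein-coding genes on chromosomes with peaks the median was 94.9 kb, with quartiles at 9.75 and 352 kb. The 3 genes inside the limit lay at 0.173 to 19.6 kb and the other 6 at 245 to 1961 kb. Of all protein-coding genes, 29.5% had a nearer peak than NKX6-1, at 19.6 kb, and 68% a nearer peak than NKX2-2, at 245 kb.

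The subunits of the KATP channel were the genes of the list with the nearest peaks. KCNJ11 encodes Kir6.2, the pore of the ATP-sensitive potassium channel, and ABCC8 encodes SUR1, its sulfonylurea receptor. In beta cells this channel closes when glucose is metabolised, which depolarises the membrane and leads to insulin release, and KATP channels are also found in neurons. The genes neighbour each other on chromosome 11, with 3152 bp between them, KCNJ11 from 17385248 to 17389346 and ABCC8 from 17392498 to 17476845 (hg38).

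A single peak of 249 bp lay in the interval between KCNJ11 and ABCC8, at chr11:17389519-17389767. It began 173 bp from the end of KCNJ11 and ended 2731 bp before ABCC8, and it overlapped no RefSeq gene. Both genes are known to be read from the reverse strand, so the peak lay on the 5′ side of KCNJ11 and on the 3′ side of ABCC8. Its fold enrichment reached 7.85 (the pileup of ChIP reads at the summit divided by that of the local background, after adding 1 to both), at a −log10 q of 12.1. At the summit there were 23 ChIP reads, for which the exact Poisson interval at 95% runs from 14.6 to 34.5, over a local background of 2.0 reads. With the background held fixed, these reads correspond to a fold enrichment from 5.10 to 11.6. It was the strongest of the 3 peaks at the islet genes, although the intervals of all 3 overlapped. It ranked 2089 of 6183 by fold enrichment and 1584 by −log10 q, so it lay in the upper part of the list but not near its top.

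The other peak of the pair lay beyond the far end of ABCC8, at chr11:17479574-17479860, 2729 bp from the gene and 90.1 kb from the first peak, summit to summit. This is the 5′ side of ABCC8, and the peak overlapped the lncRNA gene LOC124902641, which also overlaps the end of ABCC8. ABCC8 was the nearest protein-coding gene, and USH1C, which encodes the scaffold protein harmonin, also lay within 20 kb. Here 20 ChIP reads (12.2 to 30.9) stood over a background of 2.0, giving 6.87-fold enrichment at a −log10 q of 9.18. It ranked 3009 by fold enrichment, at the middle of the list, and 2491 by −log10 q. No peak was called inside the 84348 bp of ABCC8 or inside KCNJ11, and these were the only peaks within 100 kb of either gene. A background of 2.0 was shared by 808 peaks of the list, among which the lowest called summit had 11 reads. Their median was 18 reads and 6.21-fold. Both peaks lay above this median, but the read intervals of both include 18.

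NKX6-1 was the only one of the 5 transcription factor genes in the list with a peak inside the limit. It encodes a homeodomain factor that is needed for beta cell identity and that also patterns the ventral neural tube. Its peak, at chr4:84472221-84472366, lay 19619 bp from the gene, which spans chromosome 4 from 84491985 to 84499292, and was thus only just inside the 20 kb limit. The gene is on the reverse strand in RefSeq, so the peak lay past its 3′ end, and the summit was 27 kb from the start of the gene. NKX6-1 was nevertheless the nearest RefSeq gene, and no other gene lay within 20 kb. With 12 ChIP reads (6.20 to 21.0) over the lowest background of the list, 1.04, it had 6.27-fold enrichment at a −log10 q of 5.21. It was 146 bp wide, the smallest width in the list, and only 9.85% of peaks had fewer reads at the summit. The lowest called summit at this background had 8 reads and the median 14, so the NKX6-1 peak was one of the weaker calls. It was the only peak within 1 Mb of NKX6-1.

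**Figure D1:**
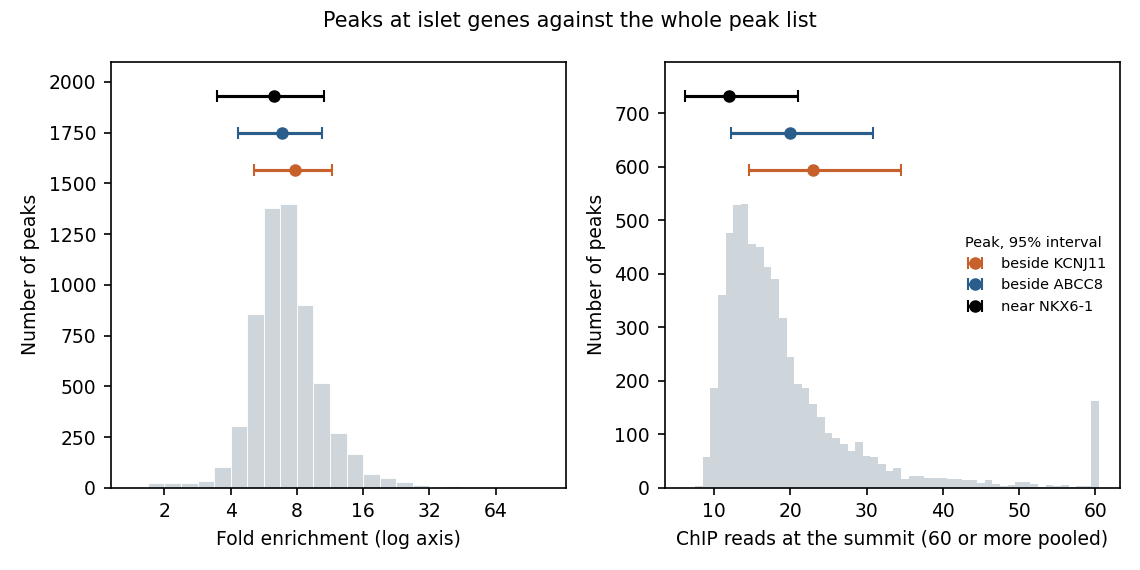
Fold enrichment (left, log axis) and ChIP reads at the summit (right, 60 or more pooled) of the 3 peaks at islet genes, as points with 95% intervals, above histograms of the whole peak list. The points have no value on the vertical axis. The 3 peaks lie within the bulk of the list, at 6.27 to 7.85-fold and 12 to 23 reads.

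PDX1, PAX4, PAX6 and NKX2-2, the other transcription factor genes, had no called peak in the window. PDX1 encodes a homeodomain factor that specifies the pancreas and activates INS, PAX4 a paired factor of the beta and delta lineages, PAX6 a paired factor of islets, eye and forebrain, and NKX2-2 a homeodomain factor of islets and the ventral neural tube. For NKX2-2, on chromosome 20 from 21511017 to 21522689, the nearest peak was 245 kb away, in the pseudogene ZNF877P, and had a fold enrichment of 5.23. It was the gene next outside the limit, and nothing lay between it and NKX6-1 in the order of distances. For PAX4, on chromosome 7 from 127610292 to 127618142, the nearest peak was 268 kb away inside SND1, with a fold enrichment of 6.98. For PDX1, on chromosome 13 from 27920000 to 27926313, the nearest peak was 299 kb away, in a stretch covered by both LNX2 and POLR1D, with a fold enrichment of 10.8. These 3 distances lay between the median and the upper quartile of all protein-coding genes. PAX6, on chromosome 11 from 31789026 to 31817961, was the most distant of the list, with no peak within 1 Mb and the nearest 1961 kb away, beside FBXO3-DT. Of all protein-coding genes, 95.2% had a nearer peak than PAX6.

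INS and GLP1R were also far from any peak. INS, the insulin gene, lies on chromosome 11 from 2159779 to 2161209, and its nearest peak was 999 kb away inside OSBPL5, with a fold enrichment of 6.78 and 17 ChIP reads (9.90 to 27.2). TH, which lies beside INS and encodes the first enzyme of catecholamine synthesis, had no peak either, and its nearest peak was 989 kb away. GLP1R, the receptor for the incretin GLP-1, lies on chromosome 6 from 39048781 to 39091303, and its nearest peak was 1185 kb away in the lncRNA gene LOC105375050, with a fold enrichment of 5.48. Of all protein-coding genes, 90.3% had a nearer peak than INS and 92.0% a nearer peak than GLP1R. The list holds called peaks only, so signal under the calling threshold at these genes could not be seen, and a gene without a peak was not shown to be unbound. At the lowest background, 8 reads was the fewest at any called summit.

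The promoters were then examined for the E-box preferred by NeuroD1, spelled CAGATG, or CATCTG on the other strand. RefSeq windows of 300 bases ran from 250 before to 50 after a gene start (GRCh38.p14). They matched 6 of the 9 genes with 16 windows, most of them starts of PAX6. ABCC8, KCNJ11 and PDX1 were not matched. The motif was held by 4 of the 16 windows, beside 14.7% of all 35116 windows. These 4 windows belonged to 3 of the 6 matched genes, INS, NKX6-1 and PAX6. Any E-box, CANNTG, was held by 10 of the 16 windows (68.7% of all windows), and the form CAGCTG by 1, of NKX2-2 (17.9%). None of the 16 windows overlapped a peak, beside 8.32% of all windows. This followed from the results above and is no separate finding. Of the matched genes only NKX6-1 had a peak within 20 kb, and that peak lay past its 3′ end. KCNJ11, with a peak 173 bp from its 5′ end, had no window. The 3 windows below are shown because each holds the motif that NeuroD1 is known to use, in a gene of the islet programme, and no peak was called there in IMR-32 cells. Each is written 5′ to 3′ on the reverse strand, with the motif in capitals. They are INS at chr11:2161160-2161459, NKX6-1 at chr4:84499243-84499542, and an internal PAX6 start at chr11:31806876-31807175.
INS: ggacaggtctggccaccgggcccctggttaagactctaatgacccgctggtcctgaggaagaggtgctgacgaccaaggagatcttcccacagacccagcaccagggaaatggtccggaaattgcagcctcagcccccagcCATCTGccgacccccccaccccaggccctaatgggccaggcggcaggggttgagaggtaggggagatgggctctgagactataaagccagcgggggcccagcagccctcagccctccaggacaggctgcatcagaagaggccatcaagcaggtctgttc
NKX6-1: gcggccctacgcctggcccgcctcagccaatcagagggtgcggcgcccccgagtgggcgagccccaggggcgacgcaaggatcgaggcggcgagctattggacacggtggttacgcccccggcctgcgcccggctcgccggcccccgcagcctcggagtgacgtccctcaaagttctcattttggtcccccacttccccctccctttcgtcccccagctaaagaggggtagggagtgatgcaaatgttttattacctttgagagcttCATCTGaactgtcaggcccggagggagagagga
PAX6: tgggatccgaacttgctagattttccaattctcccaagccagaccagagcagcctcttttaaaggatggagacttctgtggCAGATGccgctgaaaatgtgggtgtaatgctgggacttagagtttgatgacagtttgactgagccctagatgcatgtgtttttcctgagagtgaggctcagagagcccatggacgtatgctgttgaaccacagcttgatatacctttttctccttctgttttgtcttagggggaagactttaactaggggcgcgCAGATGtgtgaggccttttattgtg

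In the INS window the motif began 109 bases before the gene start, which is the place of the E-box long known as E1 in the insulin promoter. The same window also belongs to the readthrough gene INS-IGF2. In NKX6-1 the motif began 17 bases past the start. The PAX6 window held 2 copies, at 169 bases before and 25 bases past the start, and a second PAX6 start held 1 copy. No such motif was found in the windows of PAX4, NKX2-2 and GLP1R. Over all windows, those with the motif overlapped a peak in 4.94% of cases and those without it in 8.90%. For the form CAGCTG the shares were 8.65% with and 8.25% without. Windows of 1 gene can overlap, and base composition, which was not matched, may differ between windows with and without a motif. These shares describe promoter windows only, and the sequence under the peaks, at the islet genes or elsewhere, was not analysed here.

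The other genes of the islet programme gave a similar picture. Of 32 further genes examined by role, which are not the whole of the planned lists, 9 had a peak in the body or up to 20 kb away, or 28.1%, again beside 29.7% of all protein-coding genes. None of the 5 hormone genes GCG, SST, PPY, IAPP and GHRL had a peak, nor had any of SLC2A2, G6PC2 and SLC30A8, which serve glucose transport, glucose cycling and zinc loading of insulin granules. Together with INS, no peak was thus called at any of 6 islet hormone genes, of which PPY, at 30.7 kb, was the nearest to one. Of 15 transcription factor genes, 4 had a peak, while 11 did not, among them NEUROG3, the factor that starts the endocrine programme, ISL1, RFX6 and FOXA2.

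The 4 transcription factor genes were NEUROD1, INSM1, MAFA and FEV. At NEUROD1 itself the peak lay 180 bp from the gene, with a fold enrichment of 6.54 and 19 reads (11.4 to 29.7). INSM1, a zinc finger factor of endocrine cells and neuronal progenitors, held a peak of 8.60-fold with 18 reads (10.7 to 28.5). The peak in MAFA, which activates INS in beta cells, had a fold enrichment of 5.64 and 22 reads (13.8 to 33.3) over a background of 3.0. FEV, a factor of serotonin neurons and of endocrine progenitors, had a peak 664 bp away with a fold enrichment of 7.23. INSM1, FEV and NEUROD1 have known roles in neurons as well as in islets.

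Among receptors and channels, GIPR and CACNA1D had a peak and GCGR and FFAR1 had none. GIPR, the receptor of the other incretin, GIP, had 2 peaks of 8.20-fold, at 1977 and 14374 bp, of which the second lay nearer to EML2. CACNA1D, a subunit of voltage-gated calcium channels, held a peak of 7.23-fold. Of the 5 genes for hormone processing and granule proteins, CPE, PTPRN and PTPRN2 had a peak, whereas the prohormone convertases PCSK1 and PCSK2 had none, with the nearest at 278 and 198 kb. The peak in PTPRN2, a granule membrane protein, had a fold enrichment of 15.4 and 31 reads (21.1 to 44.0), ranked 199 and was the strongest peak at any islet gene examined. The PTPRN peak, of 14.0-fold and 28 reads (18.6 to 40.5), lay 10064 bp from that gene and inside DNAJB2. CPE, carboxypeptidase E, held a peak of 8.20-fold. PTPRN2 (1048768 bp), CACNA1D (319123 bp) and CPE (119540 bp) belong to the highest quartile of gene length, where 35.7% of protein-coding genes had a peak. PCSK2 (258472 bp), the other gene of these groups in that quartile, had none. Granule genes are used by chromaffin cells and neurons as well as by islets. In all, 12 of the 41 islet genes examined had a peak, a share close to the 29.7% of all protein-coding genes. The counts of 2 of 4 receptor and channel genes and 3 of 5 processing and granule genes stand beside the same 29.7%. With 3 to 15 genes in each group, the differences between the shares, or from the 29.7%, were not tested.

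For comparison, 3 of the 6 genes examined that mark the sympathetic lineage of neuroblastoma had a peak by the same rule. The share of all protein-coding genes was 29.7%. DBH held a peak of 5.27-fold with 10 reads (4.8 to 18.4) at a −log10 q of 3.3, which ranked 5807 by −log10 q. PHOX2A had a peak of 4.17-fold at 33 bp, with 16 reads at a −log10 q of 3.4, which ranked 5937 by fold enrichment. Another of 7.29-fold lay at 15598 bp, with 15 reads, nearer to INPPL1. HAND2 had a peak of 6.18-fold at 3770 bp with 12 reads at a −log10 q of 5.11, which lay nearer to SCRG1. The DBH peak, the only one at that gene, falls below the stricter limit of a −log10 q of at least 5. The count of this list would thus be lower there. No peak was called at GATA3, TH or ISL1, so genes of this lineage list could also lack a called peak. Whether they were expressed in IMR-32 cells was not analysed here. Of the 5 beta cell markers INS, IAPP, PDX1, MAFA and SLC2A2, only MAFA had a peak. These markers were already counted among the islet genes above, and ISL1 belongs to both the sympathetic list and the islet transcription factor genes. With 6 and 5 genes, the counts were not tested against the 29.7% of all protein-coding genes or against each other.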

How the data were processed

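The peak list of 1 NeuroD1 ChIP library from IMR-32 cells was analysed. Per the labels, the submitters used BWA 0.7.17, MACS2 2.2.7 and hg38, while the deposited peak names carry MACS3. The fold enrichment (a ratio), the −log10 p, the −log10 q and the score were deposited by the authors for each peak, and the q threshold is not given in the sources used here. A column of the fold enrichment divided by width was not used.

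The ChIP reads and background at each summit were solved from the deposited fold enrichment and −log10 p for 6182 peaks, which gave a weight of 0.980 for each ChIP read and a lowest background of 1.04. Background means the local level that the caller set for the same window. On 997 simulated peaks, the solver gave back the reads of 100%. These peaks were drawn from the formula that the solver inverts, over narrower ranges of reads, background and fold than the list. The check therefore covers the arithmetic only. Library depth is unknown. Genes were from RefSeq GRCh38.p14 (59679 genes), which is the same build as hg38. The distance is the difference between the facing coordinates. All 9 genes, every peak at them, their nearest peaks and the other islet genes with a peak were named by rule; TH, INS-IGF2 and USH1C were named as neighbours. Of the planned lists, 4 of 36 other islet genes and 2 of 8 sympathetic genes are not reported here and were left out of all list counts, so those shares are of incomplete lists. The genes and lists were chosen with earlier results of these data known. Analyses ran in Python 3.11.15 with scipy 1.17.1, pandas 2.3.3 and numpy 2.4.6, and figures were drawn with matplotlib 3.10.9.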

Additional observations from a re-analysis of the deposited data

How the results depend on the processing

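The 3 peaks and 3 islet genes with a peak were kept under both stricter lists, with the summit and with 50 kb; at 3 kb NKX6-1 dropped out, which left 2 of each. Of the 32 other islet genes, 8 had a peak at 3 kb, beside 21.4% of all protein-coding genes, and 11 at 50 kb, beside 39.9%. The count was 9 with a −log10 q of at least 5 (24.4% of all genes), a fold enrichment of at least 5 (27.6%) or the summit in the window (29.6%). The list of sympathetic genes was not counted under these settings. Over all RefSeq genes, which include many short non-coding genes, 17.6% had a peak in place of 29.7%. The promoter windows with a motif numbered 10 with any CANNTG and 1 with CAGCTG in place of 4. No paired analysis was possible because the series has a single ChIP library. For the same reason no value has a replicate check, and with 12 to 23 reads at each summit the order of the 3 peaks is not fixed by these data.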
